A study of Mus musculus with 3 samples.

Results

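Endoderm is the germ layer that lines the gut, and its relatives outside the embryo proper line the yolk sac. A set of 10 genes that mark these lineages was followed in ALSCs, a mouse stem cell line kept in Activin A and LIF. The set was chosen by gene symbol and comprised *Gata4*, *Gata6*, *Sox17*, *Sox7*, *Foxa2*, *Hnf4a*, *Pdgfra*, *Dab2*, *Cer1*, and *Afp*, that is 10 of the 55421 named genes counted. Each symbol matched 1 gene. *Cer1* and *Foxa2* were the members at 1 FPKM or more in all libraries, at 5.14 ± 0.771 and 1.96 ± 0.588 FPKM (SD, n = 3 for each). *Gata4*, *Hnf4a*, and *Afp* did not exceed 3 counts in any library, a level treated here as not detected. *Dab2*, *Sox17*, *Gata6*, *Sox7*, and *Pdgfra* lay in between.

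Primitive endoderm forms in the blastocyst under FGF signaling, when GATA6 and then SOX17, GATA4, and SOX7 are switched on and PDGFRA appears at the cell surface. Its descendants are parietal endoderm, which secretes a thick basement membrane, and visceral endoderm, which absorbs and secretes proteins around the epiblast. Definitive endoderm arises later from the epiblast itself, where strong Nodal or Activin signaling induces EOMES, FOXA2, and SOX17. The epiblast at gastrulation is thus both the source of definitive endoderm and the neighbor of visceral endoderm.

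ALSCs were established from epiblasts of mouse embryos at embryonic day 6.5, from ICR females mated with GOF/GFP males, which carry GFP under regulatory sequence of *Oct4*. They were grown in AL medium, which supplies Activin A, a ligand that acts through the Nodal receptors, and LIF, a cytokine that acts through STAT3. Polyadenylated RNA was sequenced in 3 libraries of this single condition (replicates 1, 2, and 3). The total count on named genes was 18037342 to 18724038, and the study's text speaks of biological replicates. The labels do not say whether these were separate cultures, so part of their spread may be technical. The labels call the cells embryonic stem cells. All 7 markers of pluripotent epiblast reached 1 FPKM in every library (*Pou5f1*, *Sox2*, *Nanog*, *Sall4*, *Utf1*, *Fgf5*, and *Dnmt3b*). None of the 5 markers of naive pluripotency reached that level in every library (*Zfp42*, *Klf4*, *Esrrb*, *Tbx3*, and *Dppa3*), and in *Zfp42* and *Tbx3* no library exceeded 3 counts.

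Levels are given in FPKM, which are counts normalized by the length of the gene and by the depth of the library over named genes. Per kilobase of gene, 1 read amounted to 0.0534 to 0.0554 FPKM. Across all protein-coding genes, 45.7% reached 1 FPKM in all 3 libraries, and across all named genes 20.1% did. Of the endoderm genes, 2 of 10 reached this level. At the other end, 34.6% of protein-coding genes had no library above 3 counts, and 60.3% had more than 3 counts in every library, against 3 and 6 of the 10 endoderm genes. In such bulk samples, fewer cells of a type and less RNA per cell cannot be told apart, so a low level may be that of a few cells or of all. No molecular identifiers are named in the protocols, so the intervals and limits below take account of counting error alone.

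**Figure D1:**
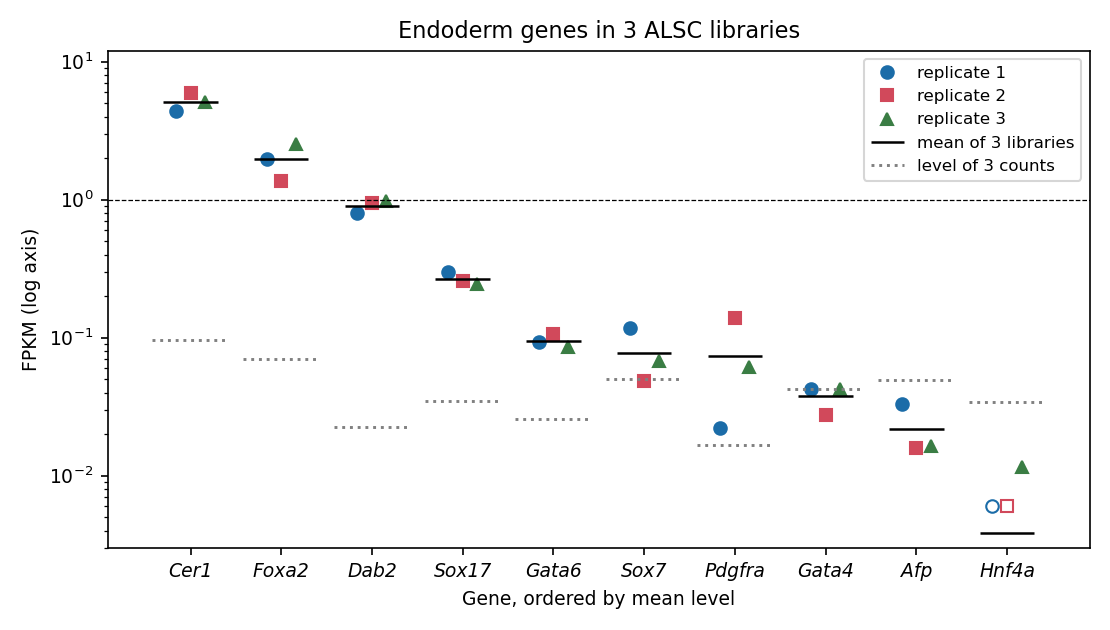
Level of each of the 10 endoderm genes in FPKM (log axis) in ALSC replicates 1, 2, and 3 (symbols), with the mean (solid bar) and the level that 3 counts would give for a gene of that length (dotted bar). Open symbols mark a count of 0 and are drawn at an arbitrary height, the dashed line is 1 FPKM, *Cer1* and *Foxa2* lie above that line in all libraries, and *Gata4*, *Afp*, and *Hnf4a* lie at or under their dotted bars.

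*Cer1* (ENSMUSG00000038192; GRCm38 chromosome 4, 82881751 to 82885148, minus strand) encodes Cerberus, a secreted antagonist of Nodal and BMP that anterior visceral and anterior definitive endoderm release. Replicates 1, 2, and 3 held 138, 193, and 160 counts of it, which gave levels of 4.39, 5.93, and 5.10 FPKM. The mean was above that of 70.1% of protein-coding genes, and no other endoderm gene of the set came higher in any library. *Pou5f1*, which encodes the pluripotency factor OCT4, was at a mean level 126 times that of *Cer1*.

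*Foxa2* (ENSMUSG00000037025; chromosome 2, 148042877 to 148046969, minus strand) encodes a forkhead pioneer factor of definitive endoderm, node, and visceral endoderm. From 84, 61, and 109 counts, its level came to 1.96, 1.37, and 2.55 FPKM in replicates 1, 2, and 3. Replicate 2 was the low library and replicate 3 the high one. The ratio of *Cer1* to *Foxa2* in FPKM was accordingly 2.24, 4.31, and 2.0 in replicates 1, 2, and 3. Together *Cer1* and *Foxa2* made up 81.8%, 82.6%, and 83.6% of the summed FPKM of the set.

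The sequences upstream of the start are shown for the most abundant gene, for the abundant gene whose counts varied, and for *Afp*, which was not detected. They are the 250 bases before the RefSeq start (GRCm38.p6), 5′ to 3′ on the gene's strand, at chr4:82885152-82885401 for *Cer1*, chr2:148046970-148047219 for *Foxa2*, and chr5:90490464-90490713 for *Afp*. Capitals mark matches to any of 8 motifs searched on both strands.
Cer1: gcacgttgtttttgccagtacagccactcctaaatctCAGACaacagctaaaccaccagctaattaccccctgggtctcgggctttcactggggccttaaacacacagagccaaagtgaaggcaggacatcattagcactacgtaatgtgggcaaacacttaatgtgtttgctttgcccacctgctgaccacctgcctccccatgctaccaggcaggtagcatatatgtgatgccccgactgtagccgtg
Foxa2: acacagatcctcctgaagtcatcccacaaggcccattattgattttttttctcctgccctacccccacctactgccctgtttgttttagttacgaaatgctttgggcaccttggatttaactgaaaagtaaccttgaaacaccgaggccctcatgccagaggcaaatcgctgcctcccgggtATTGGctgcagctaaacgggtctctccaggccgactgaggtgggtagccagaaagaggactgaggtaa
Afp: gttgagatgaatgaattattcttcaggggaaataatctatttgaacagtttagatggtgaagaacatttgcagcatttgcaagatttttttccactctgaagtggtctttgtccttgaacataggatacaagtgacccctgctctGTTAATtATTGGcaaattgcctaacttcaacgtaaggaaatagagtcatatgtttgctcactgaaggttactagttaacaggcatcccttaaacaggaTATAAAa
The letters searched were TATAAA (for the TATA-binding protein), AGATAA (for the GATA family), TGTTTAC (for forkhead factors), CAGAC (for SMADs), TGTGNATT (for FOXH1), ACAAT (for SOX factors), GTTAAT (part of an HNF1 site), and CCAAT (for NF-Y). The *Cer1* window held CAGAC, which 42.2% of 32851 windows of this length held, with its first base 213 bases before the start. The *Foxa2* window held CCAAT on the opposite strand, as did 33.8% of the windows. The *Afp* window held TATAAA just before the RefSeq start, GTTAAT, and CCAAT on the opposite strand, found in 12.4%, 6.43%, and 33.8% of the windows. That RefSeq start lies 23 bases upstream of the *Afp* gene start in the counted annotation. The ratio of CpG dinucleotides observed to those that base composition predicts was 0.309 for *Cer1*, 0.376 for *Foxa2*, and 0.125 for *Afp*, against a median of 0.373. These are matches of letters only, and no binding was measured.

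The zinc finger factors GATA6 and GATA4 act in sequence in primitive endoderm, with GATA6 first. *Gata6* (ENSMUSG00000005836; chromosome 18, 11052064 to 11085635, plus strand) was at 0.0934, 0.107, and 0.0852 FPKM in replicates 1, 2, and 3, from 11, 13, and 10 counts. *Gata4* (ENSMUSG00000021944; chromosome 14, 63198922 to 63271692, minus strand) was at 0.0425, 0.0274, and 0.0426 FPKM, from 3, 2, and 3 counts. *Gata6* was thus above the limit of 3 counts in all libraries and *Gata4* in none. Over the 3 libraries pooled, the exact Poisson 95% interval was 0.0660 to 0.133 FPKM for *Gata6* and 0.0161 to 0.0736 FPKM for *Gata4*.

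SOX17 and SOX7 are related HMG-box factors, of which SOX17 serves definitive as well as extraembryonic endoderm, while SOX7 is found in primitive and parietal endoderm and in endothelium. *Sox17* (ENSMUSG00000025902; chromosome 1, 4490931 to 4497354, minus strand) was at 0.301, 0.257, and 0.244 FPKM in replicates 1, 2, and 3, from 26, 23, and 21 counts. *Sox7* (ENSMUSG00000063060; chromosome 14, 63943673 to 63950732, plus strand) was at 0.117, 0.0486, and 0.0672 FPKM, from 7, 3, and 4 counts. *Sox17* was the higher of the pair in every library, by 2.57, 5.30, and 3.63 times. *Sox7* was at 3 counts in replicate 2, so its ratio there rests on very few reads.

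The study tested *Gata4* and *Sox17*, among other genes, by RT-qPCR. It also reported *Foxa2* as lower in ALSCs than in epiblast stem cells, but its list of primers holds none for *Foxa2*. The primers for *Gata4* and *Sox17* are shown because they say which stretch of each transcript such an assay reads. The *Sox17* pair is named here by the strand it matched, which is the reverse of the order in the study's list. All are written 5′ to 3′ and each matched the transcripts exactly.
Gata4 sense: ttcctctcccaggaacatcaaa
Gata4 antisense: gctgcacaactgggctctactt
Sox17 sense: gtaaaggtgaaaggcgaggtg
Sox17 antisense: gtcaacgccttccaagacttg
The *Gata4* primers lie in the 3′ UTR in exon 7 of the annotated gene, at chromosome 14, 63199698 to 63199719 and 63199639 to 63199660, and bound a product of 81 bases found in 3 of 6 annotated transcripts. The *Sox17* primers lie in the coding sequence, in exon 4 at chromosome 1, 4493263 to 4493283, and in exon 5 at 4492647 to 4492667. Both occur in 5 of 8 annotated transcripts, and their product is 206 bases long where the exons are spliced. Neither pair matched a transcript of another gene. The study's list also holds a pair for *Gata6*, which is not shown here. The RNA-seq counts, by contrast, cover the whole gene.

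*Dab2* (ENSMUSG00000022150; chromosome 15, 6299788 to 6440712, plus strand) encodes an adaptor for endocytosis that primitive and visceral endoderm need for uptake and cell positioning. It was at 0.798, 0.946, and 0.974 FPKM in replicates 1, 2, and 3, from 106, 130, and 129 counts. All 3 values lay just under 1 FPKM, and their coefficient of variation of 10.4% was close to the 9.07% that counting error alone gives. *Pdgfra* (ENSMUSG00000029231; chromosome 5, 75152292 to 75198215, plus strand) encodes the PDGF receptor alpha, a surface marker of primitive endoderm and, later, of mesoderm. It was at 0.0221, 0.139, and 0.0608 FPKM, from 4, 26, and 11 counts. *Pdgfra* was low in replicate 1 and high in replicate 2, with a coefficient of variation of 80.4% where counting error alone gives 27.1%.

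HNF4A, a nuclear receptor of visceral endoderm and liver, and AFP, the fetal serum protein that both tissues secrete, stand for mature endoderm. *Hnf4a* (ENSMUSG00000017950; chromosome 2, 163506808 to 163572910, plus strand) had 0, 0, and 1 counts in replicates 1, 2, and 3. Pooled over the libraries, this gave 0.00378 FPKM with an exact Poisson 95% interval of 9.6e-05 to 0.0210 FPKM. *Afp* (ENSMUSG00000054932; chromosome 5, 90490737 to 90508907, plus strand) had 2, 1, and 1 counts, or 0.0217 FPKM pooled with an interval of 0.0059 to 0.0554 FPKM. Given these lengths, 3 counts would stand for 0.0344 FPKM of *Hnf4a* and 0.0494 FPKM of *Afp*.

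Ordered by mean level, the genes ran *Cer1*, *Foxa2*, *Dab2*, *Sox17*, *Gata6*, *Sox7*, *Pdgfra*, *Gata4*, *Afp*, and *Hnf4a*. Neighbors were called apart where all 3 libraries of one lay above all 3 of the other, which held for 5 of the 9 neighboring pairs. *Cer1* was apart from *Foxa2* by 2.62 times in the means, *Foxa2* from *Dab2* by 2.16 times, *Dab2* from *Sox17* by 3.39 times, and *Sox17* from *Gata6* by 2.81 times. From *Gata6* through *Sox7*, *Pdgfra*, and *Gata4* to *Afp*, each neighboring pair overlapped. *Afp* and *Hnf4a* did not overlap but were both under the limit of 3 counts, so no order between them is read. The first 4 genes kept their places when any 1 library was left out. With the length of the longest coding transcript in place of the deposited length, 4 pairs were apart. The means of *Foxa2* and *Dab2* were then closer, at 2.18 and 1.43 FPKM.

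Some members share sequence or position with other annotated genes. The library kit named in the labels does not mark strand, so reads of a gene and of an antisense gene over the same bases cannot be told apart. Of the 50-base words of its longest coding transcript, 76.4% were found in no other gene for *Sox17*, and 98.2% or more for each of the other 9. The shared part of *Sox17* lies in *Gm37587*, an antisense noncoding gene that had no count in any library. How the authors' counting treated reads within both genes is not given in the sources used here, so the level of *Sox17* may leave out reads of that stretch. The antisense gene *1010001N08Rik* at *Gata6* had 1, 0, and 0 counts. The other 8 overlapping genes, at *Hnf4a*, *Pdgfra*, *Dab2*, and *Afp*, had 0 counts in all 3 libraries (*Hnf4aos*, *Gm25881*, *Gm42802*, *Mir7025*, *Gm42803*, *Gm16311*, *Gm18888*, and *Gm43449*).

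Whether the counts of a gene differed between the libraries by more than counting error was asked with a chi-square test, in which expected counts followed library sizes scaled by edgeR's TMM factors. The p-values were adjusted by Benjamini-Hochberg over the 16944 genes with at least 10 counts. Of these genes, 47.2% varied, so a call is common in these libraries and says that libraries differ, not that conditions do. Among the endoderm genes, 7 could be tested and 2 varied, *Foxa2* (chi-square test, adjusted p = 0.00104) and *Pdgfra* (adjusted p = 0.000927). *Cer1* did not pass (adjusted p = 0.144), nor did *Dab2* (0.566), *Sox17* (0.718), *Gata6* (0.912), and *Sox7* (0.428). With 34 and 14 counts in total, *Gata6* and *Sox7* left the test able to show only large differences. *Gata4*, *Hnf4a*, and *Afp* had too few counts to be tested.

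The count of *Foxa2* in replicate 2 was 0.687 of that expected from library size (95% interval 0.526 to 0.883), and 1.29 of it in replicate 3 (1.06 to 1.56). The count of *Pdgfra* was 0.306 of that expected in replicate 1 (0.0833 to 0.783) and 1.82 in replicate 2 (1.19 to 2.66). Replicate 2 therefore held the lowest count of one and the highest of the other. Neither call held when replicate 2 was left out (adjusted p = 0.214 for *Foxa2* and 0.155 for *Pdgfra*, chi-square test), and that of *Pdgfra* was also lost without replicate 1 (adjusted p = 0.144). Without replicate 1, the mean level of *Pdgfra* was 0.0997 FPKM, and without replicate 2 it was 0.0414 FPKM, against 0.0738 FPKM for all 3.

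**Figure D2:**
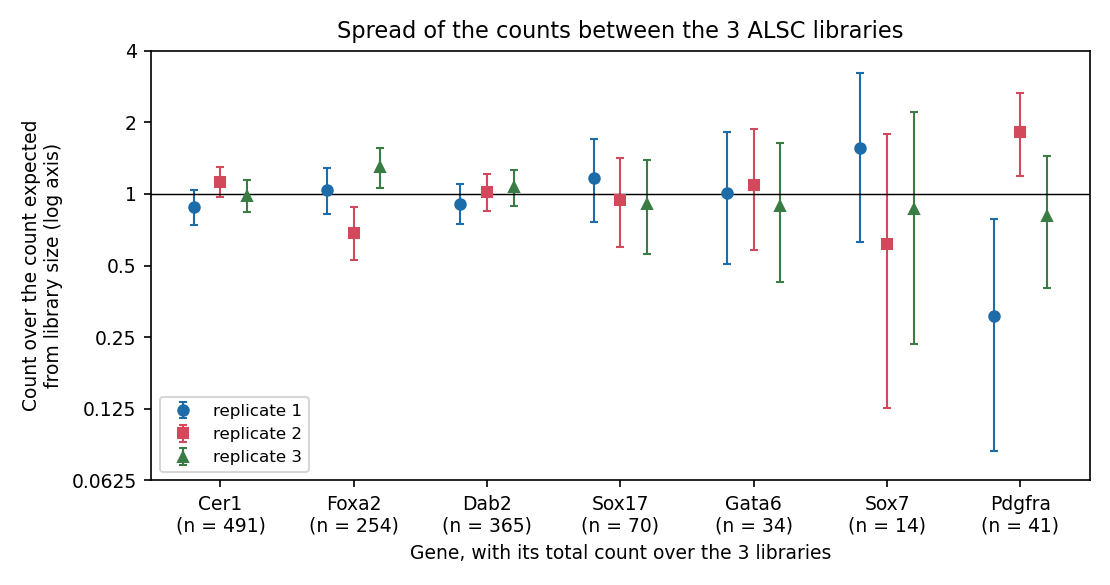
Count of each tested endoderm gene in ALSC replicates 1, 2, and 3, divided by the count expected from library size (log axis), with exact Poisson 95% intervals of the count. Intervals that leave out the line at 1 are those of *Foxa2* in replicates 2 and 3 and of *Pdgfra* in replicates 1 and 2.

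Replicate 1 stood apart from the other libraries over all genes, as edgeR's biological coefficient of variation was 0.153 with it and 0.0530 when it was left out. *Pdgfra*, with 10024 bases, is the longest of the set. The log2 ratio of its scaled counts, replicate 1 over the mean of the other libraries, was -2.10, and -1.81 once trends on gene length and GC content had been taken out. The same ratio was 0.06 for *Foxa2* and -0.26 for *Cer1*, and it moved to -0.09 and -0.57 without the trends. It was 1.09 for *Sox7* (1.01 without the trends), 0.33 for *Sox17*, 0.03 for *Gata6*, and -0.20 for *Dab2*. The sign differed between genes, but among those tested only *Pdgfra* had a replicate 1 count whose Poisson interval left out the expected count. That interval was 0.630 to 3.23 times the expected count for *Sox7* and 0.760 to 1.70 times for *Sox17*. A high level of these genes in replicate 1 is therefore not shown beyond counting error. The part of library quality in these values was not tested.

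By the distance between log2 profiles over the 3 libraries, the protein-coding genes closest to *Foxa2* were *Rab39b*, *Lin52*, and *Ncoa7*. Those closest to *Pdgfra* were *Arvcf*, *Fv1*, and *Kif11*. With only 3 libraries such profiles are not particular, since 157 of 10075 genes reached a Pearson correlation of 0.99 with *Foxa2* and 534 with *Pdgfra*.

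Family relatives of the set and other endoderm genes were read from 4 lists of 63 genes. Across these lists, 22 genes (34.9%) reached 1 FPKM in all libraries, against 45.7% of all protein-coding genes. A further 16 stayed at or under 3 counts in every library, against 34.6% of all protein-coding genes. The first list holds the 17 closest family relatives of the set, which were listed by family and not by a role in endoderm. Of these, 3 reached 1 FPKM in all libraries, namely *Dab1*, an adaptor of the Reelin pathway, at 4.44 ± 0.232 FPKM, *Pdgfrb*, the other PDGF receptor, at 1.54 ± 0.120 FPKM, and *Dand5*, a Nodal antagonist of the Cerberus family, at 1.42 ± 0.119 FPKM (SD, n = 3 for each). *Pdgfrb* was higher than *Pdgfra* in every library, by 63.6, 11.8, and 26.1 times. The ratio in replicate 1 rests on only 4 counts of *Pdgfra*. *Dab1* was higher than *Dab2* in every library, by 5.77, 4.41, and 4.66 times. By contrast *Foxa2* was higher than its relative *Foxa3* by 5.16, 4.37, and 7.81 times. Among those never above 3 counts were *Gata2*, *Gata3*, *Gata5*, *Hnf4g*, *Alb*, and *Afm*, the albumin genes *Alb* and *Afm* being neighbors of *Afp*.

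Among 8 other transcription factors of endoderm formation, 3 reached 1 FPKM in all libraries (37.5%, against 45.7% of protein-coding genes). They were *Otx2*, a factor of epiblast, anterior visceral endoderm, and forebrain, at 5.08 ± 0.472 FPKM, *Gsc*, a factor of the anterior primitive streak, at 3.61 ± 0.805 FPKM, and *Eomes*, which induces definitive endoderm, at 1.32 ± 0.161 FPKM (SD, n = 3 for each). *Gsc* and *Eomes* were thus above 1 FPKM, as were *Cer1* and *Foxa2*, but the list had no clear gap at that level. Of the genes below it, *Lhx1* had a mean of 0.992 FPKM and *Mixl1* of 0.478 FPKM. *Hhex*, a factor of anterior endoderm, had 14, 5, and 20 counts. *Prdm1*, which encodes BLIMP1 and is expressed in visceral endoderm and germ cell precursors, had 11, 3, and 21 counts.

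Of 29 products of extraembryonic endoderm, 12 reached 1 FPKM in all libraries (41.4%, against 45.7% of protein-coding genes). The highest 5 were *Apoe* (49.8 ± 6.93 FPKM), *Sparc* (45.5 ± 2.21), *Lamc1* (27.5 ± 9.33), *Krt19* (24.4 ± 3.80), and *Lamb1* (10.9 ± 1.19; SD, n = 3 for each), genes of lipid transport, matrix, laminin, and keratin that many cell types express. The 7 that never exceeded 3 counts were *Ttr*, *Apoa1*, *Apoa2*, *Apob*, *Aqp8*, *Rhox5*, and *Srgn*. *Ttr*, *Apoa1*, *Apoa2*, and *Apob*, which encode secreted carrier proteins of visceral endoderm and liver, were therefore not detected, like *Afp*. Of 9 products of definitive and anterior visceral endoderm, 4 reached 1 FPKM in all libraries (44.4%). The highest were *Lefty1* (350.1 ± 26.9 FPKM), a Nodal antagonist that pluripotent cells also express, and *Trh* (275.2 ± 11.5 FPKM), a neuropeptide precursor. They were followed by *Sfrp1* (24.1 ± 2.89 FPKM), a Wnt antagonist, and *Cxcr4* (1.14 ± 0.131 FPKM), a chemokine receptor of definitive endoderm (SD, n = 3 for each). *Shh* and *Nepn* never exceeded 3 counts. *Lefty1* was 85.7, 59.4, and 63.2 times as high as *Cer1* in replicates 1, 2, and 3.

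**Figure D3:**
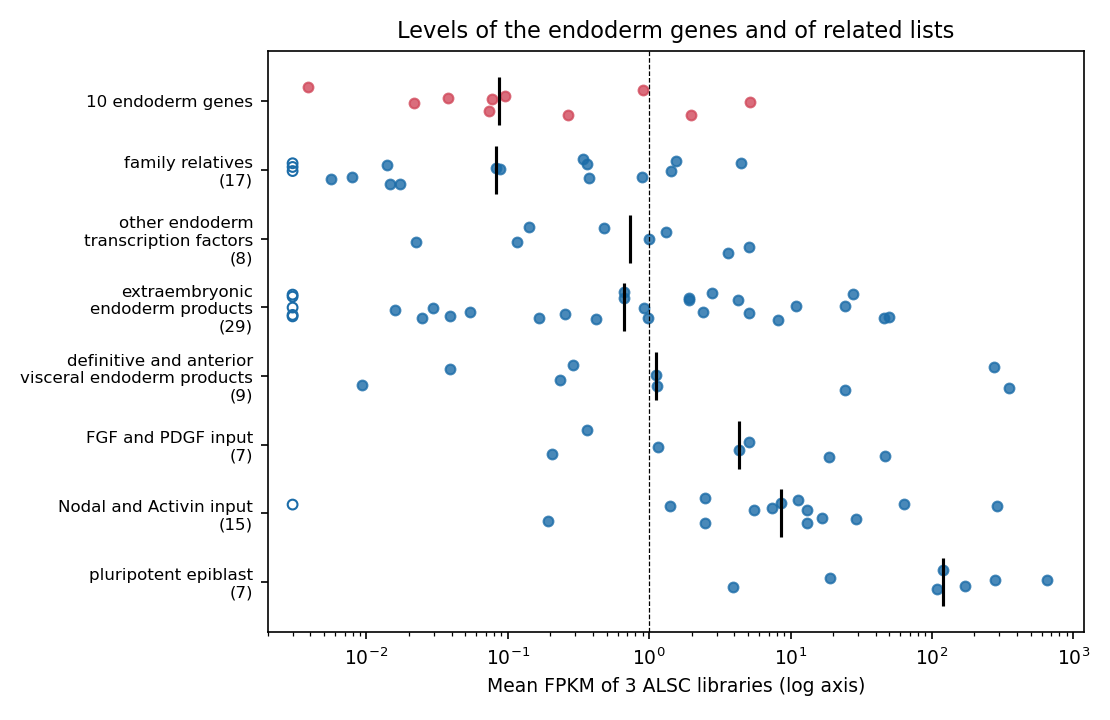
Mean FPKM over the 3 ALSC libraries (log axis) of the 10 endoderm genes and of genes in 7 lists, 1 point per gene, with the number of genes in brackets and the median as a vertical bar. Open points mark genes with no count, drawn at an arbitrary position, and the dashed line is 1 FPKM. The median was 0.0864 FPKM for the 10 genes, 0.668 FPKM for the extraembryonic products, and 119 FPKM for the pluripotent epiblast markers.

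The signals that precede these genes were read from lists of their own. Of 15 components of Nodal and Activin signaling, 13 reached 1 FPKM in all libraries (86.7%, against 45.7% of protein-coding genes). *Tdgf1*, the coreceptor Cripto, was at 288 ± 7.34 FPKM, and *Foxh1*, the DNA-binding partner of the SMADs, at 64.0 ± 3.88 FPKM (SD, n = 3 for each). *Smad4* was at 29.0 ± 4.38 FPKM, the ligand *Nodal* at 16.8 ± 1.70 FPKM, and *Gdf3*, a related ligand, at 13.2 ± 1.41 FPKM. *Nodal* itself was 4.11, 2.95, and 2.91 times as high as *Cer1*. *Gdf1* had no count in any library. Of 7 components of FGF and PDGF signaling, 5 reached 1 FPKM in all libraries, namely *Grb2*, an adaptor of receptor tyrosine kinases, at 46.5 ± 3.73 FPKM, the receptor *Fgfr1* at 18.8 ± 2.32 FPKM, and the ligands *Pdgfa* at 5.05 ± 0.868 FPKM, *Fgf4* at 4.35 ± 0.502 FPKM, and *Pdgfb* at 1.15 ± 0.136 FPKM. The ligand *Pdgfa* was higher than its receptor *Pdgfra* in every library. Of 4 regulators of GATA factors and of *Afp*, *Zfpm1*, which encodes the GATA cofactor FOG1, was at 2.25 ± 0.165 FPKM, and *Zhx2*, a repressor of *Afp*, at 1.67 ± 0.0676 FPKM, while *Zfpm2* and *Zbtb20* were under 1 FPKM.

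In the 4 lists of family relatives and other endoderm genes, 21 of 41 tested genes varied between the libraries, against 47.2% of all genes tested. Together with *Foxa2* and *Pdgfra* this made 23 varying genes. *Pdgfra* shared its order of libraries, lowest in replicate 1 and highest in replicate 2, with the basement membrane genes *Col4a1*, *Col4a2*, *Lama1*, *Lamb1*, *Lamc1*, and *Nid1*, with the endocytic receptor gene *Lrp2*, and with *Sfrp1*. That order is common here, held by 9 of the 23 and by 29.3% of all varying genes. *Foxa2* was lowest in replicate 2 and highest in replicate 3, as were *Hhex*, *Prdm1*, and *Sox18*, the last of which is a relative of *Sox17* with 11, 4, and 17 counts. This order was held by 4 of the 23 and by 3.34% of all varying genes. These 4 genes and the order were picked after the values were seen, and no test was made of it. *Hhex*, *Prdm1*, and *Sox18* had only 39, 35, and 32 counts in total, and many varying genes had far more, so the shares are not compared. *Hhex*, *Prdm1*, and *Sox18* varied with adjusted p = 0.0205, 0.00208, and 0.0319 (chi-square test), and none of the 3 did without replicate 2 (adjusted p = 0.486, 0.175, and 0.427). They were picked for being lowest in replicate 2, so this loss carries no further information.

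**Figure D4:**
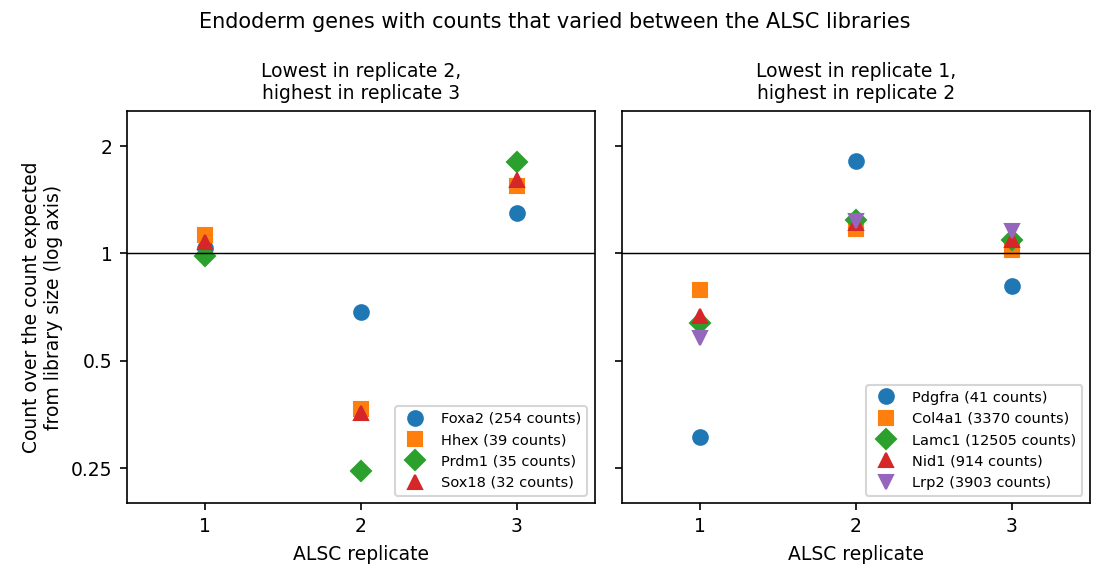
Count divided by the count expected from library size (log axis) in ALSC replicates 1, 2, and 3. Shown are *Foxa2* with the other 3 varying genes of its order from the set and lists (left), and *Pdgfra* with 4 of the 8 others of its order (right). Total counts are in the legend, and *Foxa2*, *Hhex*, *Prdm1*, and *Sox18* are all lowest in replicate 2.

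Markers of other lineages were read alongside. Of 6 mesoderm markers (*T*, *Mesp1*, *Tbx6*, *Kdr*, *Hand1*, and *Foxf1*), 0 reached 1 FPKM in all libraries, and their summed level was 1.45, 1.87, and 1.42 FPKM in replicates 1, 2, and 3. *Foxf1* had no count. Of 4 neuroectoderm markers, *Sox1* did, and the sum was 7.97, 8.81, and 8.41 FPKM (*Sox1*, *Pax6*, *Neurog2*, and *Hes5*). Of 5 trophoblast markers, *Ascl2* did, with a sum of 4.74, 4.57, and 5.0 FPKM (*Cdx2*, *Elf5*, *Tfap2c*, *Ascl2*, and *Tfeb*). Of 7 fibroblast markers, *Thy1* and *Col1a1* did, with a sum of 11.4, 12.9, and 12.2 FPKM, while *Dcn* and *Lum* had no count and *Col3a1* and *Postn* at most 3. Of these genes 12 could be tested, and 2 varied between the libraries, *Col1a1* and *Col1a2*. The summed mesoderm, neuroectoderm, and fibroblast levels were highest in replicate 2, as was *Pdgfra*, but genes within a list did not move together. *Col1a1* was highest in replicate 2 (4.01, 6.23, and 4.90 FPKM in replicates 1, 2, and 3). *Thy1* was lowest there (7.22, 6.44, and 6.98 FPKM), as was *Pax6*. The part of other cell types in the level of *Pdgfra* was not tested.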

How the data were processed

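Paired-end reads of 3 ALSC libraries were mapped to GRCm38 by the authors, and HISAT2 2.0.5 is named in the submitters' processing notes. The labels name Trizol for RNA extraction and a TruSeq RNA kit that does not mark strand. The counting program and the handling of strand and of reads with several positions are not given in the sources used here. The authors deposited raw counts for each gene and a gene length, without normalization. A further 3 columns of counts match no sample of this series and were not used. Of 55738 rows, 317 had no gene name, held 0.165% to 0.182% of the counts, and were left out.

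FPKM was computed from the deposited counts, the deposited length, and the total count on named genes. Between libraries, counts were scaled with TMM factors (edgeR 4.0.16; 0.968, 1.02, and 1.01) and compared by chi-square tests over all genes with at least 10 counts, adjusted by Benjamini-Hochberg, with 0.05 as the threshold. The test compares these libraries and covers counting error only. With 1 condition there was no test between groups, and a two-sided sign test over 3 libraries cannot go below 0.25. The software comprised R 4.3.3 with DESeq2 1.42.0, and Python 3.11.15 with SciPy 1.17.1 and NumPy 2.4.6, pandas 2.3.3 for tables, and matplotlib 3.10.9 for plots.

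Transcripts and positions came from GENCODE M21, in which 55154 of the 55421 named genes matched by identifier and 99.5% of these had the same position, all 10 endoderm genes among them. Promoter sequences came from RefSeq and were taken for 6 of the 10 genes. The windows used held no entry for *Gata4*, *Sox17*, and *Sox7*, and *Gata6* was left out. To remove trends on length and GC, medians were taken in 20 bins of genes averaging at least 100 counts.

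The endoderm genes and all lists were chosen with earlier results of these data known. The text names all 10 genes, and from each list the genes that reach 1 FPKM in all libraries up to the 5 highest, those never above 3 counts, genes overlapping a member, marker genes, and for each varying member the 3 closest protein-coding profiles. A gene that this rule would name is not reported here. Genes named for their order of libraries, and a few list genes under 1 FPKM, were added after their values were seen. Alternatives were other library sizes, TPM, another gene length, other thresholds, no filter, an exact multinomial test, and leaving out each replicate.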

Additional observations from a re-analysis of the deposited data

How the results depend on the processing

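No paired analysis was possible because all samples belong to 1 condition. The number of neighboring pairs of endoderm genes with ranges apart, 5 of 9, was 5 to 8 when 1 replicate was left out, since fewer libraries give narrower ranges. With the length of the longest coding transcript it was 4. With a limit of 2 FPKM in place of 1, the endoderm genes that reached it in all libraries went from 2 to 1 and the family relatives from 3 to 1. With 1 TPM the endoderm genes went from 2 to 3, as they did with 0.5 FPKM, and the other transcription factors from 3 to 5. The number of varying endoderm genes, 2, was 0 to 2 when 1 replicate was left out. It was 0 without replicate 2, where 0 of 7 also passed at an unadjusted p under 0.05 (chi-square test), and 1 without replicate 1. With DESeq2's size factors, with unscaled totals, without the filter, and with the exact multinomial test it stayed at 2. The calls of *Hhex* and *Sox18* were also lost without replicate 3 (adjusted p = 0.0505 and 0.0919, chi-square test), an alternative chosen after the data were seen, as were all those of *Hhex*, *Prdm1*, and *Sox18*. TPM, another unit, gave all 10 genes a mean more than 1 SD from that in FPKM, and with the length of the longest coding transcript 4 of 10 did (*Gata6*, *Sox17*, *Dab2*, and *Afp*), which took *Dab2* to 1.43 FPKM and the genes at 1 FPKM or more to 3. The median log2 ratio of replicate 1 to the others over the 7 tested endoderm genes was near 0 in both settings, at 0.03 and, with trends on length and GC removed, at -0.02. Below *Sox17* the order of the genes changed, as *Pdgfra* came above *Gata6* without replicate 1, and *Sox7* above *Gata6* and *Gata4* above *Pdgfra* without replicate 2. Depth limited *Gata4*, *Hnf4a*, and *Afp* most, with 8, 1, and 4 counts over all libraries.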

Other observations

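Among the components of Nodal and Activin signaling, 12 of 14 tested genes varied between the libraries, and 47.2% of all tested genes did. The test picks up smaller differences in genes with more counts, and *Tdgf1* had 41363 in total. All tested genes include some with as few as 10 counts, so these shares are not compared. *Acvr2b*, which encodes a type II receptor for Activin and Nodal, had 237, 897, and 735 counts in replicates 1, 2, and 3, or 3.34, 12.2, and 10.4 FPKM. Its log2 ratio of replicate 1 to the mean of the others was -1.69, and -1.67 after trends on gene length and GC content were taken out. The related receptor gene *Acvr2a*, at 206, 306, and 258 counts, had a ratio of -0.36 under both settings. *Amn* and *Cubn* encode the partners of the visceral endoderm receptor complex for protein uptake. *Amn* had 46, 36, and 17 counts and *Cubn* 1, 2, and 10, in opposite orders of the libraries. These genes were picked after their values were seen, and no explanation was tested.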
